A study of Mus musculus with 5 samples.

Results

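Transcripts of 9 regulators of mitochondrial genes were followed on 5 arrays of sorted mouse islet cells: the coactivators Ppargc1a and Ppargc1b, the DNA-binding factors Esrra, Nrf1 and Gabpa, and the mitochondrial transcription proteins Tfam, Tfb1m, Tfb2m and Polrmt. They are 9 of the 19938 genes that had a probe set annotated to a single symbol. They were chosen by name, but with the level of Ppargc1a known to be lower in the same arrays where genes of mitochondrial respiration were higher. The difference of each between the sorted fractions is therefore described here without a test. RNA came from pancreatic islet cells of C57BL/6 mice, 8 to 12 weeks old, untreated and heterozygous for Flattop (FVR/+), an allele that all 5 pools carry. Sorting by Flattop gave a positive fraction, on 3 arrays, and a negative one, on 2; each array held 1 pool from 4 to 6 mice whose sex was not determined. The sort selected on Flattop alone, so other endocrine cells of the islet can be in either fraction. In such pools, fewer cells of a type and less RNA per cell cannot be told apart.

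PGC-1α (Ppargc1a) and PGC-1β (Ppargc1b) do not bind DNA themselves. They join nuclear receptors such as ERRα (Esrra) and the nuclear respiratory factors NRF-1 (Nrf1) and GABP (whose DNA-binding subunit is Gabpa) at promoters of nuclear genes for the respiratory chain. Among the genes so controlled is Tfam, whose protein packages mitochondrial DNA and, with the factor Tfb2m and the polymerase Polrmt, starts its transcription. In β-cells the ATP made by respiration couples glucose to insulin release.

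Values are log2 signals of single probe sets, so a level is compared between arrays and not between genes. As a floor for each array served the signal that 95% of its 1027 olfactory receptor genes did not exceed, from 4.29 on Flattop-positive replicate 1 to 4.86 on Flattop-negative replicate 2. Of the 9 regulators, 7 lay above the floor on all 5 arrays. Cfap126, the gene of Flattop, was 1.56-fold higher in the Flattop-positive arrays (6.07, 6.07 and 6.24 against 5.52 and 5.44). The Flattop-negative arrays were the least alike of all pairs (r = 0.846 across genes, which are not independent replicates). Markers of β-cells lay higher in the Flattop-positive arrays without overlap for 9 of 11 genes, with list medians of 10.84 to 11.14 against 10.28 and 9.29. Of 7 α-cell markers 3 lay lower, with medians of 5.30 to 5.59 against 5.89 and 6.57. Of 10 stellate and mesenchymal markers 6 lay lower (4.09 to 4.31 against 4.40 and 5.07), of 11 immune markers 2 lower and 2 higher (4.34 to 4.58 against 4.73 and 5.48), of 8 acinar markers 2 lower (4.18 to 4.53 against 4.75 and 5.48) and of 8 endothelial markers 3 lower (3.63 to 3.68 against 3.87 and 4.21). Duct markers had 1 of 5 higher (4.82 to 6.18 against 4.74 and 6.23), and 0 of 7 δ, PP and ε markers lay apart (6.24 to 7.18 against 6.34 and 8.77). Of these 7, 6 were at least 1 log2 unit higher on Flattop-negative replicate 2 than on replicate 1, as were 10.4% of all genes. Sst, a δ-cell marker, stood at 8.08 on Flattop-negative replicate 1 and 13.19 on replicate 2. Over all genes 13.7% lay higher and 21.0% lower without overlap, and 21.4% and 9.95% of those with a mean above the floor. The endothelial medians were below the floor on every array, and the stellate medians on all but Flattop-negative replicate 2; the floor itself was higher on the Flattop-negative arrays. The part of these cells in the values below was not tested.

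Of the 9 regulators, 3 lay higher in the Flattop-positive arrays without overlap (Nrf1, Tfam and Polrmt), 1 lay lower (Ppargc1a) and 5 overlapped. Over all 19938 genes the groups lay apart, Flattop-positive higher, for 13.7% and lower for 21.0%; among the 12495 genes with a mean above the floor the shares were 21.4% and 9.95%. Nothing about the 9 is read from these counts, since the comparison was known when they were chosen. Leaving out an array cannot make groups overlap, so counts without overlap can then only stay or rise. The shares above, from all 5 arrays, do not apply to such counts. The median difference of the 9 was 0.21, against -0.10 over all genes. In limma's fit over all genes 0 passed an adjusted p of 0.05 (0% of 19938), while 1690 were higher (8.48%) and 1070 lower (5.37%) at an unadjusted p under 0.05. With a Flattop-negative array left out, 1 array stands for that group and its spread is not measured. No count of genes passing is given for such fits.

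**Figure D1:**
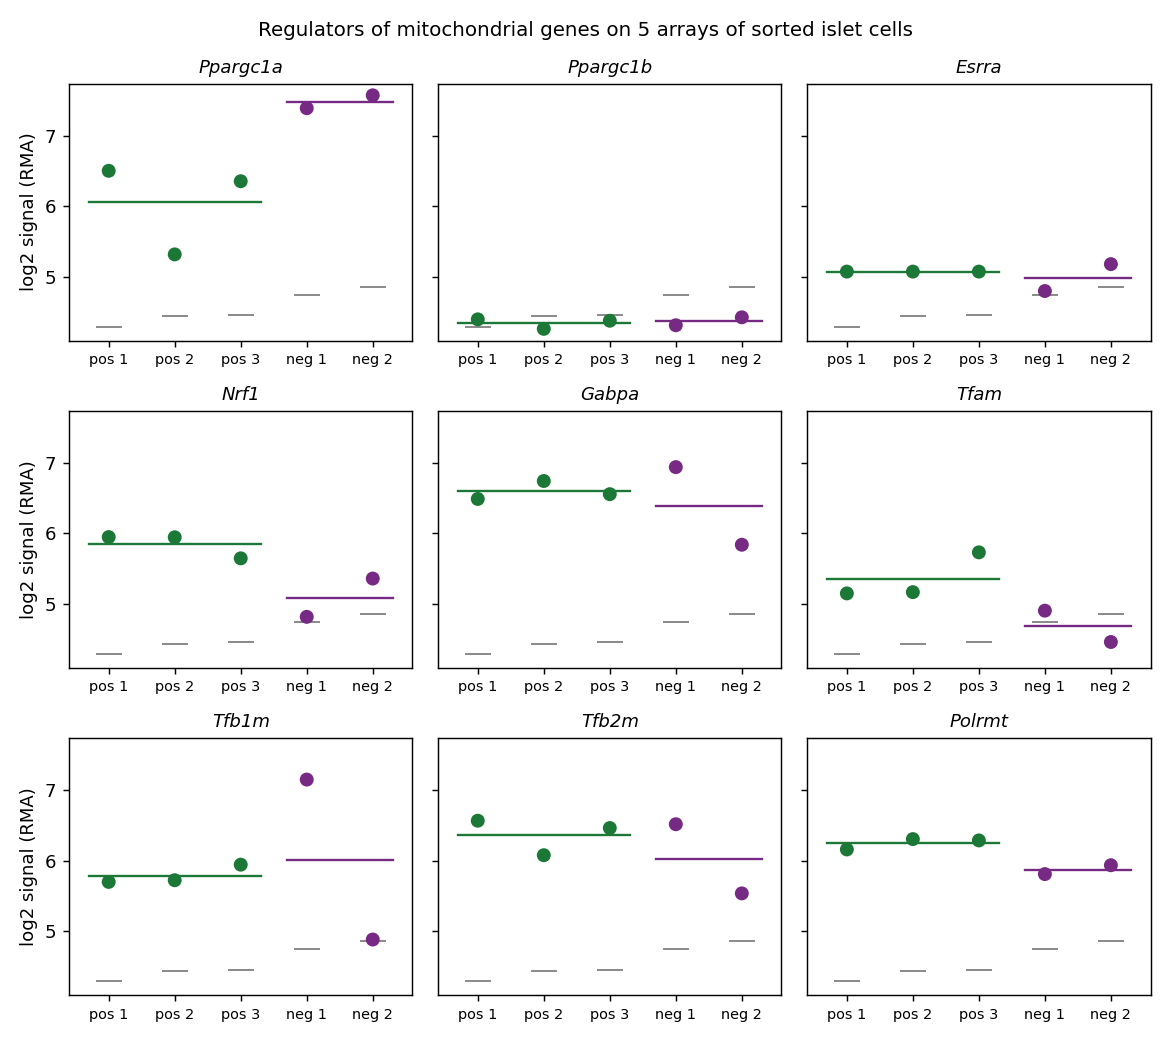
Log2 RMA signal (y axis) of each regulator on the 3 Flattop-positive (green) and 2 Flattop-negative (purple) arrays (x axis). Long bars are group means and grey dashes the floor of each array (from olfactory receptor genes). Ppargc1a is lower on all 3 Flattop-positive arrays, Nrf1, Tfam and Polrmt are higher on them, and Tfb1m is farthest apart between the Flattop-negative arrays, at 7.15 and 4.88.

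The promoters of the regulators that lay apart are shown because these genes lay apart in opposite directions: the 250 bases before the start of Ppargc1a (chr5:51567726-51567975, minus strand), Nrf1 (chr6:30047738-30047987, plus strand), Tfam (chr10:71238045-71238294, minus strand) and Polrmt (chr10:79746582-79746831, minus strand), from RefSeq on GRCm38.p6 and written 5′ to 3′ on the gene's strand. Capitals mark matches to the searched letters.
Ppargc1a: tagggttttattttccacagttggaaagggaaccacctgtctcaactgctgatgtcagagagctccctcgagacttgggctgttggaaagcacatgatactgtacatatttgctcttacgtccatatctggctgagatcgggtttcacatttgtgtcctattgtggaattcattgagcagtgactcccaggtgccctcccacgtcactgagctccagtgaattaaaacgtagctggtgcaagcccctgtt
Nrf1: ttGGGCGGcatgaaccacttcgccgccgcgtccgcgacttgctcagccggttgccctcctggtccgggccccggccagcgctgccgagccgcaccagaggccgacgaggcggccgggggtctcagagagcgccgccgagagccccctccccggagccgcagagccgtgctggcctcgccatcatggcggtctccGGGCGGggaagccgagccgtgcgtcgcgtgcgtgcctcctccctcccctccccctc
Tfam: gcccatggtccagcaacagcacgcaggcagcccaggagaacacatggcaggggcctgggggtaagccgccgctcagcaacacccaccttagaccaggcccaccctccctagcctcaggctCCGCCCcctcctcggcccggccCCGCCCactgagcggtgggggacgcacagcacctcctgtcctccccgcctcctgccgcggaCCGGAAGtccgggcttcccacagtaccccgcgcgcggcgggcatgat
Polrmt: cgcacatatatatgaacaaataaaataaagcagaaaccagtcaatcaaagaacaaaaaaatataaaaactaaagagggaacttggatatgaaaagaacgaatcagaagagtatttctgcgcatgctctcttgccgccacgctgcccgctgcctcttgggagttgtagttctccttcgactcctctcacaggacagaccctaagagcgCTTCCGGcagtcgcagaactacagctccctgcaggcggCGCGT

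The letters were searched on both strands from 250 bases before to 50 after the start. They were GCGCANGCG for NRF-1, CCGGAAG for ETS factors such as GABP, TCAAGGTCA for ERR, TGACGTCA for CREB, AAGATGGCG for YY1 and GGGCGG for SP1. Of the 9 genes, 8 had a promoter in the table, and Nrf1 had 2 entries, of which the first is printed and the second held no match. The NRF-1 letters were found at 3 of the 8 genes (Esrra, Tfb2m and Polrmt), against 6.25% of 32851 promoters, and the ETS letters at 3 (Gabpa, Tfam and Polrmt), against 8.86%. Polrmt holds both: ETS letters on the strand opposite the gene and a pair of NRF-1 matches that overlap each other and span the start, so only part of the first is in the printed bases. YY1 letters were found at Gabpa (1.4% of all promoters), and SP1 letters at 5 genes (35.7%). Neither the ERR letters (0.423% of all promoters) nor the CREB letters (1.79%) were found in the searched windows of the 8. The Ppargc1a window held none of the searched letters. It belongs to the only start listed for Ppargc1a, so any other promoter of the gene was not searched. The printed bases of Ppargc1a had 48% G and C, against 46.8% for Polrmt, 76% for Nrf1 and 72% for Tfam. The median over all promoters was 52.4%. A match is a stretch of letters, not a measured binding site.

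Ppargc1a, a coactivator that is induced by cAMP, cold and fasting in other tissues, was measured by a pair of probe sets. The one with the higher mean gave 6.50, 5.32 and 6.36 in Flattop-positive replicates 1, 2 and 3 and 7.39 and 7.58 in the Flattop-negative arrays. All 3 Flattop-positive values were lower, and the closest values of the groups were 0.89 apart. The difference was -1.43 ± 0.40 (SE) on the log2 scale, a 2.69-fold lower level. Flattop-positive replicate 2 was the lowest array, and without it the difference was -1.05.

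The other Ppargc1a probe set did not separate the groups. It gave 6.40, 4.45 and 4.57 in the Flattop-positive arrays and 5.65 and 6.11 in the Flattop-negative arrays. Flattop-positive replicate 1 was here the highest array of all, and Flattop-positive replicates 2 and 3 stood close to their floors of 4.44 and 4.45. The difference was -0.74, and with the mean of both probe sets it was -1.08 ± 0.48 (SE). Both probe sets were lowest on Flattop-positive replicate 2, and they disagreed on replicates 1 and 3. The files used here do not show which part of the gene each probe set covers, so it is not known whether they measure the same transcripts.

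**Figure D2:**
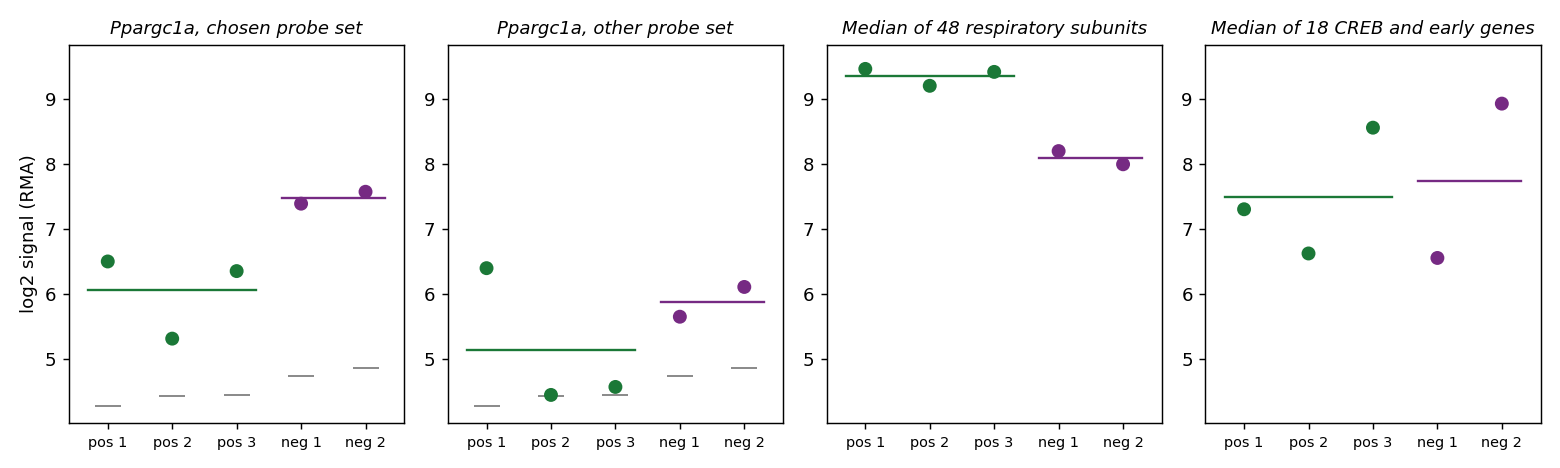
Log2 RMA signal (y axis) on each array (x axis; green Flattop-positive, purple Flattop-negative) for the 2 Ppargc1a probe sets, for the median of 48 nuclear-encoded respiratory subunits and for the median of 18 CREB and immediate early targets. Long bars are group means and grey dashes array floors. The first probe set lies lower on all Flattop-positive arrays while the subunits lie higher; the second reaches 6.40 on Flattop-positive replicate 1, and the early genes are high on Flattop-positive replicate 3 and Flattop-negative replicate 2.

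Ppargc1b, the second coactivator, stood at 4.40, 4.26 and 4.38 in the Flattop-positive and 4.31 and 4.42 in the Flattop-negative arrays. It was above the floor on 1 array only (Flattop-positive replicate 1), so a fall or a small change would not have been seen. Its difference was -0.02 ± 0.18 (SE) and changed sign to 0.15 with arrays centred, 0.23 on repeated quantile normalisation and 0.26 after cyclic loess. Pprc1, the third gene of the coactivator family, was at 6.55, 6.82 and 6.05 against 6.04 and 5.97. It lay higher in the Flattop-positive arrays, though replicate 3 was only just above the Flattop-negative arrays (0.47 ± 0.28, SE; adjusted p = 0.479 in limma).

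Esrra, the orphan nuclear receptor through which PGC-1α acts on many respiratory genes, had 5.07 on each of the 3 Flattop-positive arrays and 4.80 and 5.18 on the Flattop-negative arrays. The Flattop-positive values were equal to the last decimal given, as they were for 58 of the 35556 probe sets. The Flattop-negative arrays lay on either side of them, and the difference was 0.09 ± 0.20 (SE), or -0.11 and 0.28 without Flattop-negative replicate 1 and 2. Esrrg, a related receptor, overlapped too (5.78, 5.54 and 5.68 against 5.93 and 5.51).

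Nrf1 encodes the nuclear respiratory factor that binds GC-rich promoters of respiratory genes. It stood at 5.95, 5.95 and 5.65 in the Flattop-positive arrays and at 4.82 and 5.36 in the Flattop-negative arrays. All 3 Flattop-positive arrays were higher, with 0.29 between the closest values. The difference was 0.76 ± 0.25 (SE), a 1.69-fold higher level. It was 1.03 with Flattop-negative replicate 2 left out and 0.49 with replicate 1 left out, whose level was near its floor of 4.75.

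Gabpa, the ETS-family subunit of GABP, stood at 6.49, 6.75 and 6.56 in the Flattop-positive arrays. The Flattop-negative arrays enclosed these values, at 6.94 and 5.84. The difference of 0.21 ± 0.36 (SE) became 0.76 with Flattop-negative replicate 1 left out and -0.34 with replicate 2 left out; it was -0.04 after cyclic loess. Gabpb1, a partner subunit of Gabpa, varied most between the Flattop-positive arrays (5.30, 4.51 and 5.92 against 5.15 and 5.21).

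Tfam, which coats mitochondrial DNA and bends it at promoters, stood at 5.15, 5.17 and 5.73 in the Flattop-positive arrays and at 4.90 and 4.46 in the Flattop-negative arrays. The last value was below its floor of 4.86, so the size is uncertain there. The groups did not overlap, with 0.25 between the closest values, and the difference was 0.67 ± 0.28 (SE), a 1.59-fold higher level. Without Flattop-positive replicate 3, the highest array, it was 0.48, and without Flattop-negative replicate 2 it was 0.45.

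Polrmt, the RNA polymerase of mitochondria, stood at 6.16, 6.31 and 6.29 against 5.81 and 5.94. Its SD was 0.08 in the Flattop-positive (n = 3) and 0.09 in the Flattop-negative arrays (n = 2), and the groups lay 0.22 apart. The difference was 0.38 ± 0.18 (SE), a 1.3-fold higher level, and ran from 0.32 to 0.44 with any 1 array left out. It was 0.56 with arrays centred, 0.23 on repeated quantile normalisation and 0.22 after cyclic loess.

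Tfb1m methylates the small mitochondrial ribosomal RNA, while its relative Tfb2m opens promoters for Polrmt. Tfb1m stood at 5.70, 5.72 and 5.94 in the Flattop-positive arrays, and at 7.15 and 4.88 in the Flattop-negative arrays. The Flattop-negative arrays were thus the highest and the lowest of the 5, and 2.92% of all genes had a gap at least as wide between them. The difference of -0.23 ± 0.65 (SE) turned to 0.91 when Flattop-negative replicate 1 was left out, and was -1.36 when replicate 2 was. Tfb2m stood at 6.57, 6.08 and 6.46 against 6.52 and 5.54, and its second probe set gave nearly the same (6.50, 5.96 and 6.43 against 6.35 and 5.63). Its difference of 0.34 ± 0.35 (SE) became 0.83 with Flattop-negative replicate 1 left out and -0.15 with replicate 2 left out.

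**Figure D3:**
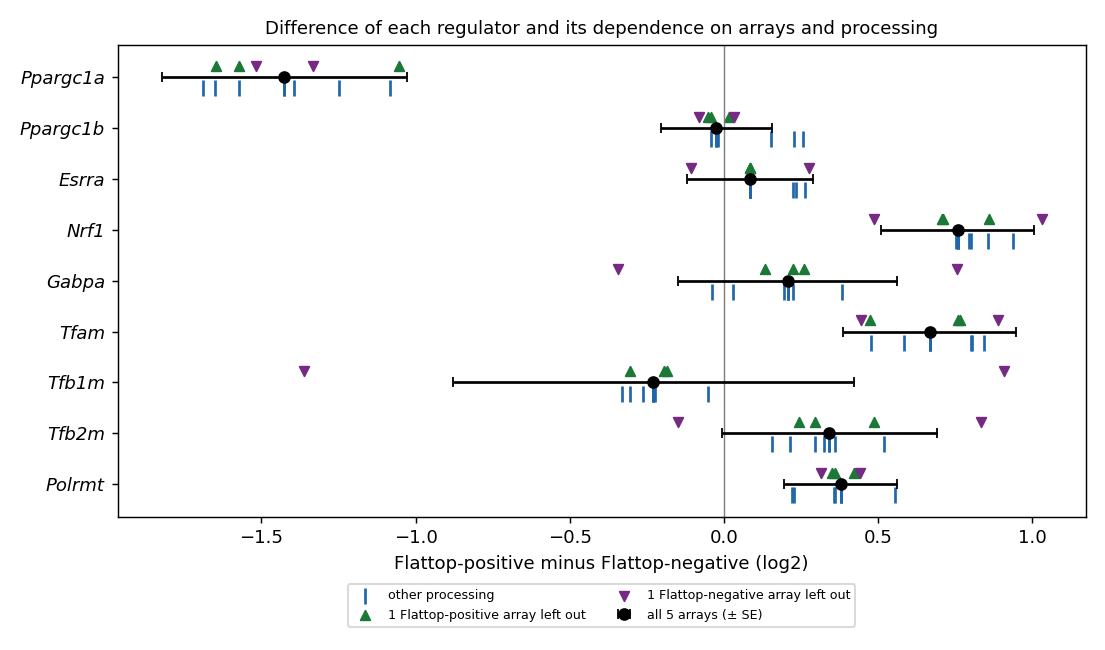
Log2 difference, Flattop-positive minus Flattop-negative (x axis), of each regulator (y axis): black points with SE bars use all 5 arrays, triangles leave out 1 array and blue ticks use other processing. Ppargc1a stays left of 0 and Nrf1, Tfam and Polrmt right of it in all of these, while Gabpa, Tfb1m, Tfb2m, Esrra and Ppargc1b fall on either side of 0 depending on which Flattop-negative array is left out.

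The regulators thus varied along more than 1 line. Gabpa, Tfb1m and Tfb2m were higher on Flattop-negative replicate 1 than on replicate 2 by 1.10, 2.27 and 0.98, against a median absolute gap of 0.46 over all genes. Nrf1, Esrra and Polrmt had the opposite order, with gaps of -0.54, -0.38 and -0.13. With each gene centred on its own mean over the 5 arrays, the regulators most alike were Ppargc1b and Esrra (root mean square difference 0.11), both with little variation, followed by Esrra and Polrmt (0.17). Gabpa and Tfb2m differed by 0.26. The 2 most unlike were Ppargc1a and Nrf1 (1.17).

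By the same measure, the 5 genes most like Ppargc1a among 7825 that lay above the floor on every array and varied by an SD of at least 0.3 were Gm4876 (0.30), Zfp948 (0.31), 1700025G04Rik (0.32), Zfand5 (0.33) and Ctbp2 (0.34). Ctbp2, a corepressor, was at 7.35, 6.26 and 6.77 in the Flattop-positive and 7.38 and 8.21 in the Flattop-negative arrays, with its lowest value on Flattop-positive replicate 2, as for Ppargc1a. Those most like Esrra were Atp2b2, Csad, Cul9, 0610040J01Rik and Pxylp1 (0.15 to 0.16), each lowest on Flattop-negative replicate 1.

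Nuclear-encoded respiratory subunits, whose promoters these factors serve, lay higher in the Flattop-positive arrays, which was known when the regulators were chosen and is given as a description. Of 48 genes 37 were higher without overlap (77.1%, against 13.7% of all genes and 21.4% of those above the floor). Lower were 0 (against 21.0% and 9.95%), and the median difference was 1.19. The number higher was 25 on repeated quantile normalisation and 24 after cyclic loess. The list's median signal was 9.47, 9.21 and 9.42 in the Flattop-positive arrays and 8.20 and 8.00 in the Flattop-negative arrays. Among the Flattop-positive arrays, replicate 2 had the lowest Ppargc1a and the lowest subunit median. Between the fractions, the lower Ppargc1a of the probe set with the higher mean went with the higher subunit medians. The other Ppargc1a probe set overlapped between the fractions. A link between Ppargc1a and the subunits was not tested. The median difference was 0.78 without Flattop-negative replicate 2, 0.80 on repeated quantile normalisation and 0.75 after cyclic loess.

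Ndufs7 and Ndufv1, subunits of complex I, had differences of 1.91 ± 0.21 and 2.25 ± 0.29 (SE). Uqcrc1 of complex III and Atp5o of ATP synthase had 1.96 ± 0.30 and 1.39 ± 0.20. Cycs, which encodes cytochrome c and is a well-known NRF-1 target, stood apart from these examples, at 8.81, 8.21 and 9.41 against 9.89 and 7.69; the Flattop-negative arrays were its highest and lowest, as for Tfb1m. Its difference of 0.02 ± 0.71 (SE) became 1.12 with Flattop-negative replicate 1 left out and -1.08 with replicate 2 left out.

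Other mitochondrial enzymes and carriers known as PGC-1 and ERR targets had a median difference of 0.85. Of 35 genes 21 lay higher without overlap (60%, against 13.7% of all genes and 21.4% of those above the floor) and 0 lower (against 21.0% and 9.95%). This too was known beforehand. The median fell to 0.56 on repeated quantile normalisation and 0.47 after cyclic loess. Etfb, which passes electrons from fatty acid oxidation, had 2.40 ± 0.42 (SE), the pore Vdac1 1.14 ± 0.21, the thioredoxin Txn2 1.195 ± 0.244 and Pdha1 of pyruvate dehydrogenase 1.10 ± 0.24. Citrate synthase (Cs) stood at 8.21, 8.22 and 8.05 against 6.32 and 7.69, and its difference of 1.16 ± 0.42 (SE) was 0.47 without Flattop-negative replicate 1. Pdk4, a kinase that shuts pyruvate dehydrogenase and a textbook target of PGC-1α with ERRα, had the lowest difference of the list, -1.80 ± 0.78 (SE), and is named after its value was seen. Pdk4 was at 4.04, 4.89 and 5.47 against 5.41 and 7.80; the groups overlapped, and the difference was -0.61 without Flattop-negative replicate 2.

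**Figure D4:**
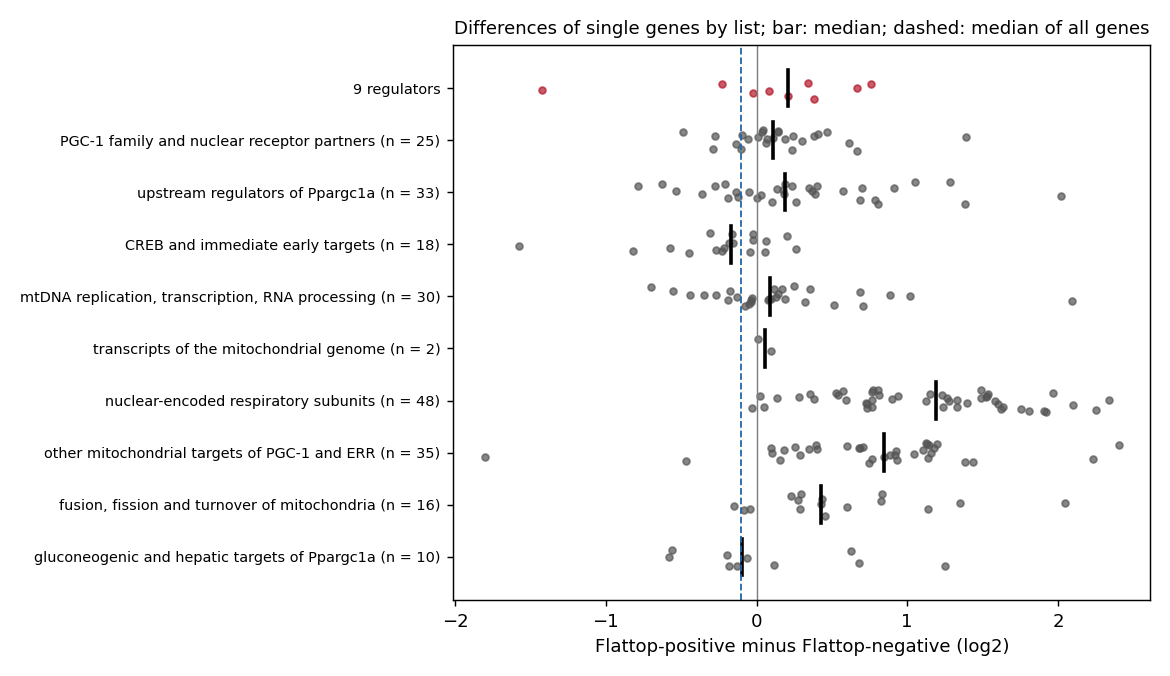
Log2 difference, Flattop-positive minus Flattop-negative (x axis), of each of the 9 regulators (red) and of each gene in the lists of related genes (grey; y axis). Black bars are medians and the dashed line is the median of all genes, -0.10. Respiratory subunits have a median of 1.19, and genes for mitochondrial DNA replication, transcription and RNA processing one of 0.09.

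Genes that replicate, transcribe and process mitochondrial DNA and RNA had a median of 0.09. Of 30 genes 2 lay higher without overlap (6.67%, against 13.7% of all genes) and 1 lower (3.33%, against 21.0%). The lower one, Top1mt, was above its floor on Flattop-negative replicate 2 only. The number higher was not stable under other normalisation: it was 10 with arrays centred, and 4 after cyclic loess or repeated quantile normalisation. With an array left out it can only stay or rise. It was 15 without Flattop-negative replicate 1, 10 without replicate 2, and 5 and 4 without Flattop-positive replicate 1 or 3. In limma 2 were higher at an unadjusted p under 0.05 (against 8.48% of all genes) and 0 lower (against 5.37%), and 0 passed the adjusted threshold. How this list differs from the respiratory subunits was not tested. Leaving out Flattop-positive replicate 3 or Flattop-negative replicate 2 gave a median of -0.02, and leaving out Flattop-negative replicate 1 one of 0.34. Polg, the DNA polymerase of mitochondria, was nearly level (5.60, 5.62 and 5.62 against 5.43 and 5.62), as was the helicase Twnk (4.84, 4.93 and 5.02 against 4.67 and 5.03). The single-strand binding protein Ssbp1 and the elongation factor Tefm, which works with Polrmt, were again highest on Flattop-negative replicate 1 and lowest on replicate 2. Ssbp1 had 8.86, 8.72 and 8.97 against 9.40 and 8.05, and Tefm 5.83, 5.40 and 5.67 against 6.43 and 4.98. Of the list, 10 genes were at least 1 log2 unit higher on Flattop-negative replicate 1 than on replicate 2 and 3 the other way, where 10.9% and 10.4% of all genes were. Higher in the Flattop-positive arrays were Mrpl12, a ribosomal protein that also binds Polrmt (1.02 ± 0.21, SE; adjusted p = 0.214 in limma), and Hsd17b10, a subunit of mitochondrial RNase P (0.89 ± 0.30).

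Of the transcripts of the mitochondrial genome, the products of Polrmt, 2 were analysed here. COX2, of cytochrome oxidase, stood at 12.63, 12.15 and 12.48 against 12.74 and 12.08, and ND3, of complex I, at 12.30, 11.91 and 11.50 against 12.40 and 11.21. Both overlapped, with differences of 0.01 ± 0.28 and 0.10 ± 0.43 (SE). These became 0.34 and 0.69 with Flattop-negative replicate 1 left out, and -0.32 and -0.50 with replicate 2 left out. Both were high on Flattop-negative replicate 1 and lowest on replicate 2.

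Upstream of Ppargc1a, the kinase AMPK, the deacetylase Sirt1 and CREB are known to raise its level or activity, and acetylation by Kat2a (GCN5) to lower its activity. Of 33 such genes 6 lay higher without overlap and 2 lower, and the median was 0.19. The 2 lower, Camk4 and Nr0b2, were below the floor on every array. The 18.2% higher was near the shares over all genes (13.7%) and over those above the floor (21.4%). The 6.06% lower stood against 21.0% and 9.95%. In limma 6 were higher at an unadjusted p under 0.05 (against 8.48% of all genes) and 0 lower (against 5.37%). Of the list, 0 passed the adjusted threshold. Centring arrays raised the number higher to 10. With an array left out, where the number higher can only stay or rise, it was 12 without Flattop-positive replicate 3. It was 13 or 16 without Flattop-negative replicate 1 or 2. The median was -0.001 after cyclic loess. The AMPK subunit Prkag1 stood at 7.69, 7.82 and 7.50 against 6.62 and 6.62, a difference of 1.05 ± 0.20 (SE; adjusted p = 0.207 in limma). Kat2a was at 7.24, 7.31 and 6.85 against 6.44 and 6.25 (0.79 ± 0.23, SE). The methyltransferase Prmt1, a PGC-1α modifier, had the widest difference of the list, 2.02 ± 0.29 (SE), from below its floor on Flattop-negative replicate 1. The corepressor Hdac3 had 1.29 ± 0.23 (SE). Sirt1 was at 6.80, 6.02 and 6.42 against 7.41 and 6.67, and its groups overlapped, as did those of Creb1 (7.09, 7.33 and 6.70 against 7.55 and 6.33) and of the PGC-1 repressor Nrip1 (6.90, 6.95 and 6.92 against 6.53 and 7.73).

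The partners of the PGC-1 family had a median of 0.11, which turned to -0.05 on repeated quantile normalisation and -0.03 after cyclic loess. Of 25 genes 4 lay higher without overlap and 0 lower, where 21.0% of all genes and 9.95% of those above the floor were lower. The 16% higher was near the 13.7% of all genes. The number higher was 9 or 11 with Flattop-negative replicate 1 or 2 left out. In limma 2 were higher at an unadjusted p under 0.05 (against 8.48% of all genes), 0 lower (against 5.37%), and 0 passed the adjusted threshold. Nfe2l1, a transcription factor of proteasome genes, had 1.39 ± 0.45 (SE) and 0.82 without Flattop-negative replicate 1. The lipid-sensing receptor Nr1h3 had 0.67 ± 0.25 (SE), was below its floor on Flattop-negative replicate 1, and had 0.40 without that array.

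Ppargc1a is itself known as a CREB target in other tissues. Of 18 genes that CREB and acute stimuli induce, 0 lay higher without overlap and 1 lower (5.56%), with a median of -0.17. The lower one, Nr4a3, was above its floor on Flattop-negative replicate 2 only. Over all genes 13.7% lay higher and 21.0% lower, and 21.4% and 9.95% of those above the floor. In limma 0 of the 18 passed the adjusted threshold. At an unadjusted p under 0.05 also 0 passed, against 8.48% of all genes higher and 5.37% lower. List medians were 7.31, 6.63 and 8.56 in the Flattop-positive and 6.56 and 8.93 in the Flattop-negative arrays. Atf3, a stress-induced factor, stood at 7.51, 5.27 and 11.51 against 7.61 and 11.74. Flattop-positive replicate 3 and Flattop-negative replicate 2 were thus the high arrays. Ppargc1a, by the probe set with the higher mean, differed by 0.18 between the Flattop-negative arrays. The list median was lowest on Flattop-negative replicate 1, where Ppargc1a was 7.39. It was next lowest on Flattop-positive replicate 2, where Ppargc1a was lowest, at 5.32. The list median and Ppargc1a by this probe set were both highest on Flattop-negative replicate 2. The other Ppargc1a probe set was highest on Flattop-positive replicate 1, at 6.40. A link between the list and Ppargc1a was not tested. Leaving out Flattop-negative replicate 1 gave this list a median of -1.48, and leaving out replicate 2 one of 0.99, with 9 genes higher. The median was 0.12 without Flattop-positive replicate 2, -0.80 without replicate 3, 0.01 with arrays centred, and -0.45 or -0.47 on repeated quantile normalisation or cyclic loess.

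Genes of fusion, fission and turnover of mitochondria had a median of 0.43. Of 16 genes 6 lay higher without overlap (37.5%, against 13.7% of all genes and 21.4% of those above the floor). Lower were 0, against 21.0% and 9.95%. In limma 4 were higher at an unadjusted p under 0.05 (against 8.48% of all genes), 0 lower (against 5.37%), and 0 passed the adjusted threshold. Without Flattop-negative replicate 1 the number higher was 12 and the median 0.76, and after cyclic loess the number was 3. The fission receptor Fis1 had 2.04 ± 0.67 (SE), and 0.89 without Flattop-negative replicate 1. Phb2, a prohibitin of the inner membrane, had 1.14 ± 0.34 (SE), and 0.62 without the same array. The median was 0.17 on repeated quantile normalisation and 0.11 after cyclic loess. Of 10 genes that PGC-1α controls in liver, 1 lay higher and 1 lower without overlap (10% each, against 13.7% and 21.0% of all genes). The lower one, G6pc, was below the floor on every array. The median of the 10 was -0.10. In limma 1 was higher at an unadjusted p under 0.05 (against 8.48% of all genes), 0 lower (against 5.37%), and 0 passed the adjusted threshold. The median turned to 0.06 on repeated quantile normalisation, 0.10 after cyclic loess, 0.08 with arrays centred and 0.12 without dim genes. With Flattop-negative replicate 2 left out it was 0.26, and 4 genes lay higher; 2 or 3 did with Flattop-positive replicate 2 or 3 left out, and 2 with arrays centred. Tat, tyrosine aminotransferase, was the one higher (6.63, 7.45 and 6.19 against 5.41 and 5.61). Pck1, the gluconeogenic enzyme that PGC-1α is best known for inducing in liver, was near the floor throughout (4.25, 4.58 and 4.44 against 4.63 and 4.48).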

How the data were processed

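The authors deposited 1 log2 signal for each probe set and array. The submitters' processing notes name RMA, which subtracts background, quantile-normalises the arrays and combines probes, and the software Expression Console of Affymetrix (version 1.3.0.187). The annotation and genome build behind the values are not given in the sources used here. Of 35556 probe sets, 21789 carried 1 symbol, and per gene the one with the highest mean over the 5 arrays was kept (19938 genes). The fit used limma 3.58.1 under R 4.3.3, two-sided, with group as the only term and Benjamini-Hochberg adjustment over all genes; SEs come from this fit, which was tested on simulated data. No source says that the pools were prepared independently, so p-values measure the spread between these 5 arrays, whose number limits precision. Named genes were the 9 regulators, up to 4 genes per list by unadjusted p, a fixed set (Cycs, Cs, Nrip1, Sirt1, Creb1, Pprc1, Polg, Twnk, Ssbp1, Tefm, Gabpb1, Esrrg; Ucp2 not analysed here), Cfap126, and those most like Ppargc1a and Esrra; others were chosen after their values were seen. Regulators and lists were chosen with earlier results of these data known. Alternatives were a replicate block, each array left out, other normalisations, dim genes left out, other probe sets, variance trend and array weights.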

Additional observations from a re-analysis of the deposited data

How the results depend on the processing

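Ppargc1a lay lower, and Nrf1, Tfam and Polrmt higher, without overlap in the 13 alternatives run on the chosen probe sets or their mean. Most of these could not have changed that. The replicate block, variance trend, array weights and omission of dim genes keep the same values, and leaving out an array cannot make groups overlap. Only the other normalisations could, and for Ppargc1a the mean of its probe sets. The second Ppargc1a probe set, added after seeing the data, gave -0.74 and overlapped. Of the 9 regulators, 3 lay higher without overlap and 1 lower. The count higher was 5 on repeated quantile normalisation, after cyclic loess and with centred arrays (Esrra and Ppargc1b joining). With 1 array left out, where a count can only stay or rise, 3 to 6 lay higher and 1 to 3 lower. Centring arrays moved the median of all genes from -0.10 to 0.08; relative to that median, over the alternatives, Ppargc1a ran from -1.69 to -0.94, Nrf1 from 0.57 to 1.10, Tfam from 0.51 to 0.97 and Polrmt from 0.23 to 0.51. The median of the respiratory subunits (1.19) was 0.80 on repeated quantile normalisation, 1.37 with arrays centred, 0.75 after cyclic loess, and 0.78 to 1.19 with 1 array left out. The cause of these shifts was not tested. Genes past an adjusted p of 0.05 in limma were 0, and 0 to 434 with 1 array left out (434 without Flattop-negative replicate 2, the remaining array taken to vary like the others). A difference of at least 1.5-fold with an unadjusted p under 0.05 was seen for 2356 genes, and 1505 on repeated quantile normalisation, 1406 after cyclic loess, and 1198 to 4722 with 1 array left out. With the replicate block, which shared only a number, 1775 genes passed that threshold and Ppargc1a had -1.57. Same-numbered arrays did not deviate together (correlation of deviations 0.02 for replicate 1 and 0.02 for replicate 2). With 3 arrays against 2, sizes at or below the floor (Ppargc1b, Tfam on 1 array) are uncertain.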

Other observations

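Several genes that handle mitochondrial RNA differed more between the Flattop-negative arrays than between the fractions; they were chosen after their values were seen. Slirp, an RNA-binding protein that stabilises mitochondrial messengers, stood at 10.78 on Flattop-negative replicate 1 and 7.13 on replicate 2, against 8.63 to 9.11 on the Flattop-positive arrays. Its partner Lrpprc stood at 8.03 and 6.57, against 7.07 to 7.62. The RNA-degrading enzyme Pnpt1 had 8.35 and 6.01 (6.77 to 7.40), the ribosome assembly factor Fastkd2 7.46 and 4.92 (6.10 to 6.80) and the termination factor homologue Mterf3 9.58 and 6.88 (7.44 to 7.67). For Slirp, Lrpprc, Pnpt1, Fastkd2 and Mterf3 the Flattop-negative arrays were thus the highest and the lowest of the 5, as for Tfb1m. Rmrp, the RNA of RNase MRP, had the opposite order, at 5.77 on Flattop-negative replicate 1 and 12.06 on replicate 2, against 10.70 to 11.24 on the Flattop-positive arrays.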
